A study of Canis lupus familiaris with 10 samples.

Results

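Integrins, the receptors through which cells grip the extracellular matrix, were followed in cultured hemangiosarcoma cells through 10 genes, the alpha subunits ITGAV, ITGA1, ITGA2, ITGA4, ITGA5 and ITGA7, the beta subunits ITGB1, ITGB3 and ITGB5, and the integrin-like ITGBL1. Every probe set annotated to exactly 1 of these genes was taken, which gave 26 probe sets for 10 of the 15115 genes named on the array. The RNA came from 10 dogs with hemangiosarcoma of the spleen, a malignant tumor with features of blood vessel lining cells, and each dog gave 1 primary tumor cell line and 1 Affymetrix Canine_2 array. Golden Retrievers were 6, named ChadG4, ChadG6, ChadG8, Frog, Journey and Tucker. Against them stood 3 non-Golden Retrievers, ChadP9 (labelled Portugese Water Dog), Dal4 (labelled Dalmation) and Joey (a Rottweiler by its title). The remaining dog, DD1, was an F1 dog labelled Golden Mix and stood outside both groups. The labels name no treatment and no normal cells, and breed was the contrast. Cells came from the earliest passages that could be had, and a line is the culture of 1 tumor. Per the study's methods Frog and Journey were relatives, and the labels used for grouping gave neither age nor sex. By the study's record ChadG6, Frog and Journey were female and the other dogs male. All females were thus Golden Retrievers, so breed and sex were partly tied together in this comparison. With 1 array a dog, an SD here holds the difference between dogs together with culture and array error.

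Integrins are pairs of 1 alpha and 1 beta subunit that span the plasma membrane. The alpha subunit largely sets which matrix protein is bound, and the beta subunit's short cytoplasmic tail recruits talin, kindlin and the other proteins that couple the receptor to actin. In vessel lining cells, alpha v beta 3 and alpha 5 beta 1 bind vitronectin and fibronectin during vessel growth, alpha 1 beta 1 and alpha 2 beta 1 bind collagens, and alpha 7 beta 1 is a laminin receptor best known from muscle.

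The signals are log2 values, so that a difference of 1 is a change of 2-fold. They were compared between dogs within a probe set, and not between probe sets, whose probes bind with different strength. As a line for background the 40th percentile of each array was used, which lay between 5.02 and 5.16. Probe sets above it on at least 3 of the purebred dogs' arrays were tested, which left 26787 probe sets. Of the integrin probe sets, 19 were tested and stood for 9 genes. The other 7 lay below the line on all 10 arrays, with signals of 2.60 to 4.90. They were the only probe set of ITGA4, 3 of the 5 of ITGAV, 1 of the 2 of ITGB1, 1 of the 5 of ITGB5 and 1 of the 3 of ITGA2. Array medians ranged only over 5.77 to 5.83. Over all tested probe sets, Dal4 (mean Euclidean distance of 145.0 to the other dogs) and ChadG4 (138.7) stood farthest from the rest, against 101.4 to 124.2 for the other dogs. Both dogs moved several of the differences below, and values without them are given where they did so most.

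The labelled cell type was checked against marker genes. Of 15 endothelial genes, PECAM1, TEK, ESAM, EMCN and PLVAP were below the line on all arrays, PECAM1 at 4.03 to 4.72, and CDH5 lay just above it at 5.15 to 5.41. Of 9 fibroblast genes, 8 were above the line on all arrays. Among them were COL1A1 at 12.84 to 13.63, PDGFRB at 6.04 to 7.17 and FAP at 6.53 to 11.47. LUM was below the line in Dal4 only. Of 11 leukocyte and myeloid genes, PTPRC, ITGAM, TYROBP and FCER1G were below the line on all arrays and 6 were above it on all. These ran from LCP1 at 7.97 to 11.03 and CD14 at 5.98 to 7.98 down to ITGAL at 5.51 to 5.87 and CSF1R at 5.23 to 5.48. The mean signal of 4 epithelial genes ran from 4.95 in ChadP9 to 8.88 in Joey. That of 3 genes of proliferating cells ran from 6.63 in Tucker to 10.17 in Dal4. Other endothelial genes were detected, and 7 of the 15 were above the line on all arrays, among them KDR at 6.51 to 8.25, EGFL7 at 7.06 to 7.51 and ROBO4 at 6.78 to 7.37. FLT1 was above it on 4 arrays, VWF on 2 and ERG on 9. The mean signal of the 15 was 5.23 to 5.77 in Golden Retrievers, 5.08 to 5.57 in non-Golden Retrievers and 5.47 in the F1 dog. Endothelial markers were thus mixed, and the cultures are called hemangiosarcoma cells here by their label. In such bulk RNA, fewer cells of a type and less RNA per cell cannot be told apart.

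ITGAV, ITGB1, ITGB5, ITGA5, ITGA2, ITGA1, ITGA7 and ITGB3 were above the line on all 10 arrays in at least 1 probe set. ITGBL1 was above it too, but in all dogs except Tucker only narrowly, at 5.21 to 5.57. That does not show that ITGBL1 was present in every dog. These 9 are called the detected genes below. Between breeds, 13 of the 19 tested probe sets were higher in Golden Retrievers and 6 were lower, against 47.1% higher among all tested probe sets. By limma, 0 of the 19 passed an adjusted p under 0.05 (background 0.00373% of all tested probe sets), and 0 passed by the methods' t-test. Adjusted p-values lay between 0.772 and 0.999. At an unadjusted p under 0.05, limma gave 2 integrin probe sets as higher in Golden Retrievers, both of ITGA7, against a background of 1.81%, and 0 as lower, against 4.52%. The methods' t-test gave 1 in all. In 0 of the 19 did the Golden Retriever and non-Golden Retriever signals stay apart without overlap, which 2.46% of all tested probe sets did. The median difference, Golden Retriever minus non-Golden Retriever, was 0.17 over the integrin probe sets and -0.02 over all tested. Several of these probe sets read the same gene and are not separate observations.

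**Figure D1:**
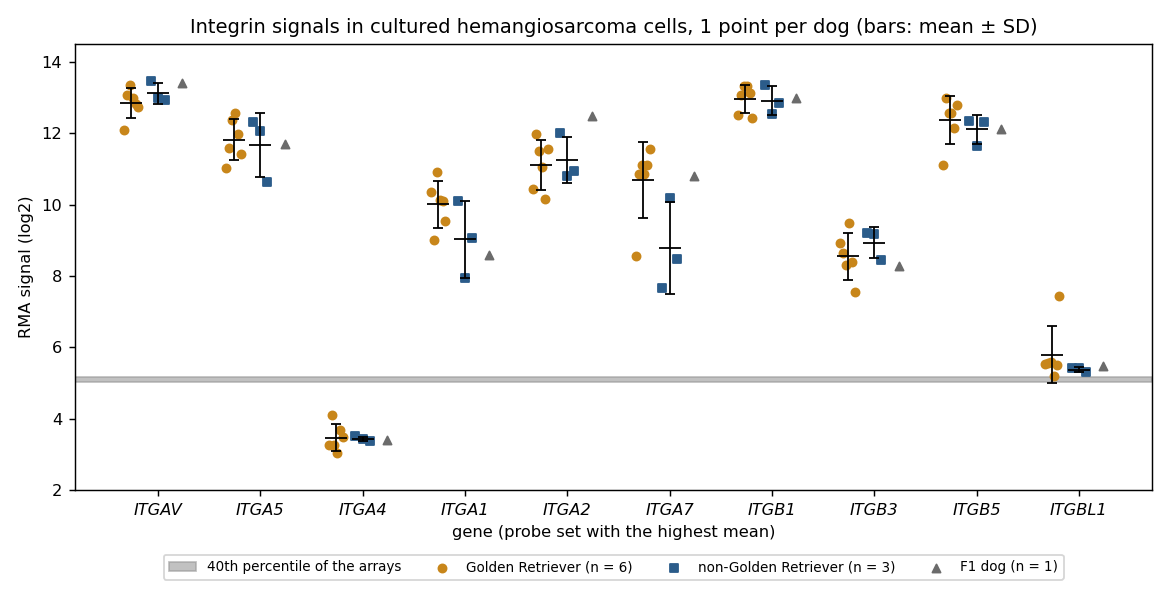
Log2 signal (vertical axis) of each of the 10 integrin genes at its probe set of highest mean, with 1 point per dog, Golden Retrievers left of non-Golden Retrievers and the F1 dog at the right; horizontal bars are group means with SD, and the grey band spans the arrays' 40th percentiles. The groups overlap in every gene, and ITGA4 lies below the band in all dogs.

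ITGA7 showed the widest spread over the dogs and the largest breed difference of the 10 genes. The gene (gene 481097, on chromosome 10 of UU_Cfam_GSD_1.0) codes for the alpha 7 subunit, which pairs with beta 1 and binds laminin. At the first of its 5 probe sets, counted by mean signal, Golden Retrievers ran from 8.56 in ChadG4, over a median of 10.98, to 11.56 in Tucker. Non-Golden Retrievers had 7.66 in ChadP9, 10.19 in Dal4 and 8.48 in Joey, and the F1 dog had 10.81. All 3 non-Golden Retrievers were below the Golden Retriever mean, but the groups overlapped because ChadG4 lay with ChadP9 and Joey. The means were 10.68 ± 1.07 in Golden Retrievers (SD, n = 6) and 8.78 ± 1.29 in non-Golden Retrievers (SD, n = 3). The log2 difference of 1.90 (SE 0.699, 95% interval 0.33 to 3.47), or 3.73-fold, did not pass the test over all probe sets (limma, adjusted p = 0.772). An exact two-sided permutation test of this value gave p = 0.0238, with 2 of 84 splits as large, where 0.0119 is the smallest p that this design allows. ITGA7 is shown first for its large difference, and this p is not adjusted for that choice or for the other probe sets. The same permutation test gave p = 0.155 both for the third ITGA7 probe set and for ITGA1.

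For description, the dogs were divided at the widest gap between their ITGA7 signals at the first probe set. Any set of values has a widest gap, and whether the dogs form separate sets was not tested. Each side of the gap held dogs of both breed groups. ChadP9, Joey and ChadG4 were at 8.56 or below, and the other 7 dogs were at 10.19 or above. That gap of 1.62 was wider than the next widest of 0.82. Along with the Golden Retrievers ChadG6, ChadG8, Frog, Journey and Tucker, the higher set held the Dalmatian and the F1 dog.

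The other ITGA7 probe sets were set beside this one to see how far they follow it. The second had 6.76 to 9.88 in Golden Retrievers, with a median of 9.41, and 6.26, 8.52 and 6.61 in ChadP9, Dal4 and Joey, with 9.20 in the F1 dog. Its difference was 1.91 (SE 0.717, limma adjusted p = 0.772), and over the 10 dogs its signals followed those of the first with a Pearson r of 0.995. The third, a dimmer probe set, was also lowest in ChadP9 at 5.15 but highest in Frog at 7.72, with a difference of 0.85 (SE 0.442, adjusted p = 0.779) and an r of 0.84 with the first. The fourth and the fifth stayed within 5.46 and 6.14 in all dogs, with differences of 0.17 and 0.14. Both followed each other (r = 0.91) more closely than they followed the first, with r of 0.38 and 0.09. ITGA7 was thus read as varying by 3 of its 5 probe sets, and which part of the transcript each one reads was not analysed here.

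**Figure D2:**
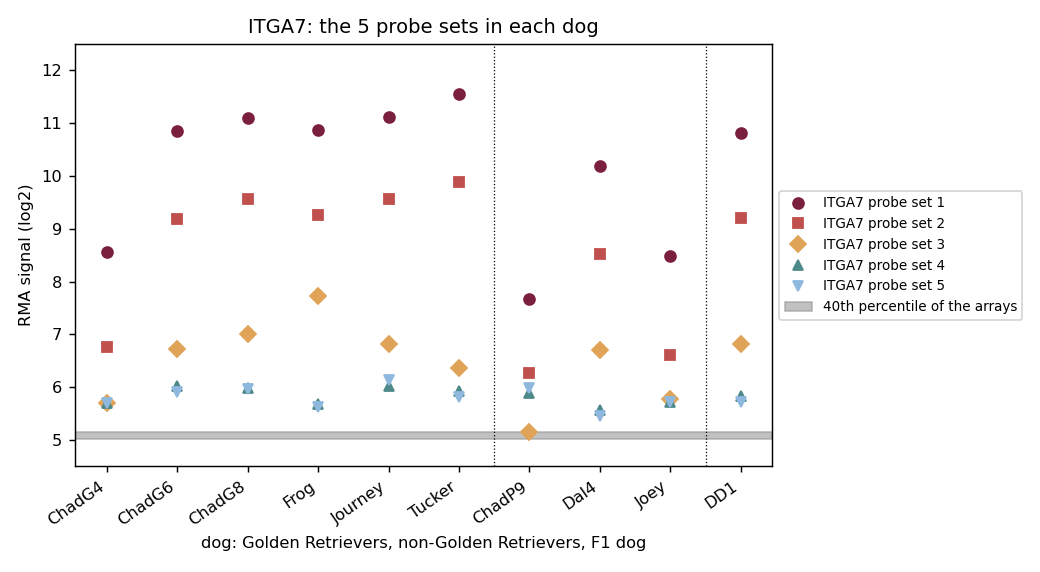
Log2 signals (vertical axis) of the 5 ITGA7 probe sets in each dog (horizontal axis), with the Golden Retrievers left of the non-Golden Retrievers and the F1 dog last; the grey band spans the arrays' 40th percentiles. Probe sets 1 and 2 are low together in ChadG4, ChadP9 and Joey, and probe sets 4 and 5 stay close to the band in all dogs.

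Single dogs weighed on the size of the ITGA7 difference. Leaving out each purebred dog in turn, it ranged over 1.34 to 2.60 at the first probe set and 1.47 to 2.60 at the second, and it stayed positive. The lowest value came without ChadP9 and the highest without Dal4. With the females left out, all of them Golden Retrievers, it was 1.63 and 1.60 (limma, adjusted p = 0.886 and 0.895). With ChadG4 and Dal4 both left out, the dogs farthest from the rest, it was 3.03 at the first probe set (limma, adjusted p = 0.0575) and 3.06 at the second (adjusted p = 0.0167). This setting was chosen after seeing the data. It removes the Golden Retriever with the lowest and the non-Golden Retriever with the highest ITGA7 signal, so that a larger difference follows from its construction.

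Smooth muscle genes were read beside ITGA7, since muscle cells express alpha 7. All 7 listed genes (ACTA2, TAGLN, MYH11, CNN1, DES, MYOCD and SMTN) were found and tested, and 6 were above the line on every array. Their mean signal was 7.10 to 9.94 in Golden Retrievers, 7.96 to 9.63 in non-Golden Retrievers and 9.02 in the F1 dog. It was lowest in ChadG4 at 7.10 and next lowest in Joey at 7.96, both dogs of low ITGA7, but in ChadP9, with the lowest ITGA7, it was 9.63. The part of such cells in the ITGA7 signals was not tested.

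ITGAV differed between breeds by about its error and was lowest in ChadG4. It codes for alpha v (gene 488437, chromosome 36), which pairs with beta 1, beta 3 and beta 5 and binds proteins with an RGD sequence such as vitronectin and fibronectin. At its first probe set, Golden Retrievers had 12.09 in ChadG4, a median of 12.91 and 13.35 in ChadG8. ChadP9, Dal4 and Joey had 13.45, 12.98 and 12.92, and the F1 dog had 13.40. Apart from ChadG4 all dogs lay between 12.74 and 13.45, and the groups overlapped. The means were 12.84 ± 0.429 in Golden Retrievers (SD, n = 6) and 13.12 ± 0.291 in non-Golden Retrievers (SD, n = 3), a difference of -0.27 (SE 0.261, limma adjusted p = 0.867). Its other tested probe set had 10.41 in ChadG4 and 10.50 in Tucker, and 11.42 to 12.55 in the other 8 dogs. Its difference was -0.52 (SE 0.441, adjusted p = 0.850), and both probe sets ranked the dogs alike (Spearman's rho = 0.96 over 10 dogs). ChadP9 was highest in both. With single dogs left out the differences ranged over -0.38 to -0.11 and -0.75 to -0.18, nearest to 0 without ChadP9, and without ChadG4 they were -0.12 and -0.34.

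ITGA5, whose alpha 5 beta 1 is the classical fibronectin receptor, did not differ in a settled direction. The gene (gene 486493) lies on chromosome 27. At the first of its probe sets the Golden Retrievers had 11.03 to 12.56, with a median of 11.78, lowest in ChadG4 and highest in Frog. ChadP9, Dal4 and Joey had 12.31, 12.06 and 10.64, so that Joey had the lowest signal of all dogs, and the F1 dog had 11.70. The difference was 0.15 (SE 0.432, limma adjusted p = 0.969), and at the second it was -0.003 (SE 0.544, adjusted p = 0.999). Without Joey the difference at the first probe set was -0.37, and it was 0.47 without ChadP9.

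ITGA1 and ITGA2, the collagen receptor subunits that pair with beta 1, varied from dog to dog in different ways. Both genes (489210 and 489208) lie on chromosome 4 of UU_Cfam_GSD_1.0, with 1 protein-coding gene between them. ITGA1 had 8.99 in ChadG6, a median of 10.12 and 10.90 in ChadG8 among Golden Retrievers. Non-Golden Retrievers had 10.09 in ChadP9, 7.93 in Dal4 and 9.08 in Joey, and the F1 dog had 8.59. The means were 10.01 ± 0.661 in Golden Retrievers (SD, n = 6) and 9.03 ± 1.08 in non-Golden Retrievers (SD, n = 3). That difference of 0.97 (SE 0.500, 95% interval -0.15 to 2.10, adjusted p = 0.776 by limma) was the next largest after that of ITGA7, and it was 0.42 without Dal4 and 1.503 without ChadP9.

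For ITGA2, Golden Retrievers ran from 10.16 in Journey, over a median of 11.28, to 11.97 in ChadG6 at the first probe set. In non-Golden Retrievers it had 12.003 in ChadP9, 10.80 in Dal4 and 10.95 in Joey. The F1 dog had 12.48, above every purebred dog, and it was also highest at the second probe set, with 10.43 against 7.76 to 9.95 in purebred dogs. The difference was -0.14 at both probe sets (SE 0.432 and 0.486, limma adjusted p = 0.973 and 0.977). The dogs' order for ITGA2 was not that for ITGA1, in which the F1 dog was second lowest.

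ITGA4 was not detected on these arrays. It codes for alpha 4, which with beta 1 binds VCAM1 and fibronectin and is best known from leukocytes. Its only probe set had 3.03 to 4.10 in Golden Retrievers and 3.38 to 3.50 in non-Golden Retrievers, with 3.41 in the F1 dog. These values are at background, which does not show that the transcript is absent. Like ITGAV, the gene (488429) lies on chromosome 36.

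Among the beta subunits, ITGB1, the partner of most of these alpha subunits, had nearly equal means in both groups. It lies on chromosome 2 (gene 477956). At its tested probe set the Golden Retrievers had 12.42 in Tucker, a median of 13.10 and 13.34 in ChadG8. The non-Golden Retrievers had 13.36 in ChadP9, 12.55 in Dal4 and 12.84 in Joey, and the F1 dog had 12.99. Means were 12.96 ± 0.400 in Golden Retrievers (SD, n = 6) and 12.91 ± 0.411 in non-Golden Retrievers (SD, n = 3), and the difference of 0.05 (SE 0.266, 95% interval -0.55 to 0.65, limma adjusted p = 0.984) was smaller than either SD. The whole range over the 10 dogs was 0.94, the narrowest of the 9 detected genes.

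ITGB3, the beta 3 subunit of the vitronectin receptor and of the platelet fibrinogen receptor, was lowest in Tucker. The gene (403788) lies on chromosome 9. Golden Retrievers had 7.54 in Tucker, a median of 8.51 and 9.48 in Frog. Signals in non-Golden Retrievers were 9.19 in ChadP9, 9.18 in Dal4 and 8.44 in Joey, and the F1 dog had 8.27. Means were 8.55 ± 0.652 in Golden Retrievers (SD, n = 6) and 8.93 ± 0.430 in non-Golden Retrievers (SD, n = 3), a difference of -0.39 (SE 0.378, limma adjusted p = 0.870). The platelet gene ITGA2B, whose alpha IIb pairs with beta 3 in platelets, lay near background, at 5.41 to 5.98 in all dogs.

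ITGB5, the beta 5 subunit that pairs with alpha v, was lowest in ChadG4 in each of its 4 tested probe sets. The gene (608977) lies on chromosome 33. At the first of them ChadG4 had 11.10, the other Golden Retrievers had 12.15 to 12.98, and the Golden Retriever median was 12.57. ChadP9, Dal4 and Joey had 12.35, 11.64 and 12.32, and the F1 dog had 12.13. Means were 12.36 ± 0.674 in Golden Retrievers (SD, n = 6) and 12.10 ± 0.398 in non-Golden Retrievers (SD, n = 3). Its difference was 0.25 (SE 0.385, limma adjusted p = 0.930) and those of the other probe sets were 0.37, 0.32 and 0.19. At the first probe set it was 0.51 without ChadG4, 0.02 without Dal4 and 0.28 without both. All 4 followed each other over the dogs, with r of 0.94 to 1.00.

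ITGBL1, a secreted protein that resembles the beta subunits but lacks their membrane anchor, was above background in 1 dog by a clear margin. The gene (485536) lies on chromosome 22. Tucker had 7.42, and the other Golden Retrievers had 5.21 to 5.57. ChadP9, Dal4 and Joey had 5.41, 5.41 and 5.30, and the F1 dog had 5.48. The difference of 0.42 (SE 0.430, limma adjusted p = 0.879) was 0.10 without Tucker.

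**Figure D3:**
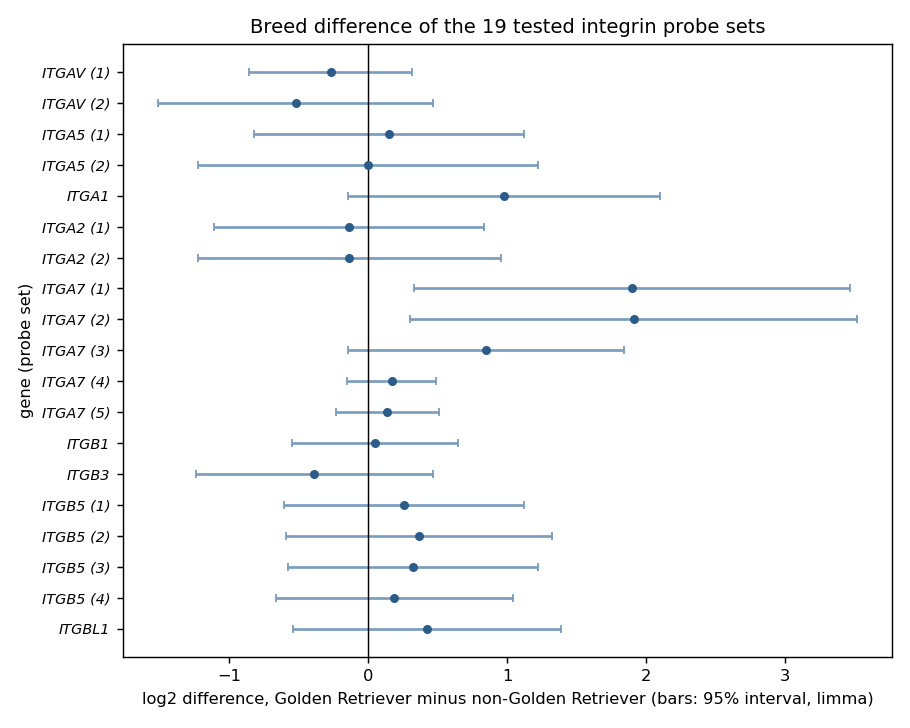
Log2 difference, Golden Retriever (n = 6) minus non-Golden Retriever (n = 3), of the 19 tested integrin probe sets (points), with the limma fit's 95% interval (bars); numbers in brackets count a gene's probe sets by mean level. Only the intervals of ITGA7 probe sets 1 and 2 lie wholly to the right of 0, and neither passed after adjustment.

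Differences between dogs were wide in these genes, whatever the breed. The median SD over the 10 dogs was 0.626 for the integrin probe sets and 0.328 for all tested, and 17 of the 19 lay above 0.328. The median range over the dogs was 2.07 for the integrin probe sets, 1.06 for all tested and 1.17 for the 15311 tested probe sets at a mean signal of 7 or more. ITGA7 had an SD of 1.36 and 1.39 at its first and second probe sets, wider than those of 97.7% and 97.8% of all tested probe sets. The exceptions of low spread were the dim ITGA7 probe sets, at 0.162 and 0.201.

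By dog, Joey was below the mean of the 10 dogs in 8 of the 9 detected genes, ChadG4 in 7 and Dal4 in 6, while ChadG8, Frog and ChadP9 were below it in 2 each. These counts include ITGBL1, in which every dog but Tucker was below the mean. The count of Dal4 also includes ITGAV, at -0.0001 from the mean. ChadG6 was below it in 4, and Journey, Tucker and the F1 dog in 5 each. Low dogs therefore came from both groups. ChadG4 had the lowest ITGAV and ITGB5, Tucker the lowest ITGB1 and ITGB3 and the highest ITGA7 and ITGBL1, and ChadP9 the highest ITGAV and ITGB1 but the lowest ITGA7. No dog was lowest in more than 2 genes, and none was highest in more than 2. The F1 dog lay inside the range of the purebred dogs in 8 of the 9 genes, with ITGA2 the exception.

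**Figure D4:**
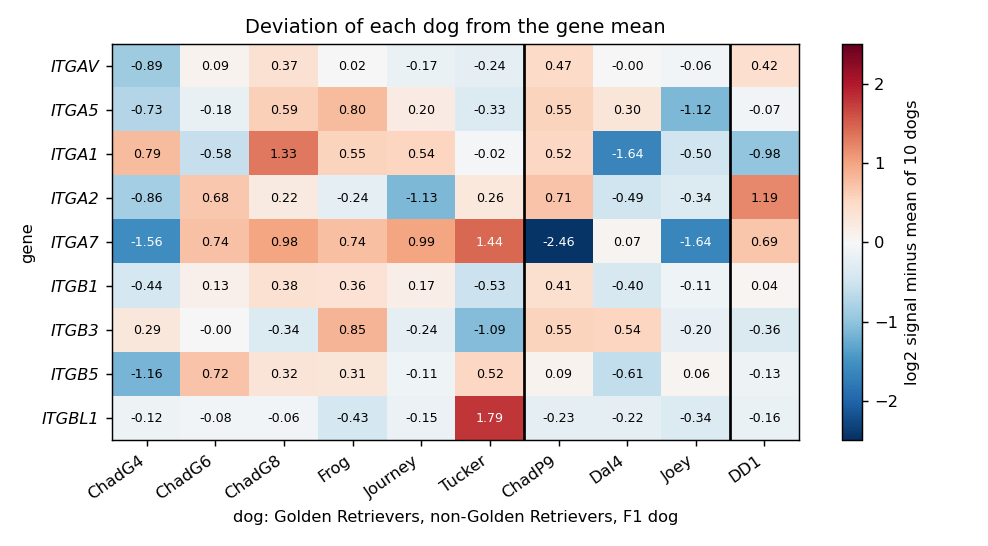
Deviation of each dog's log2 signal from the gene's mean over the 10 dogs (color and printed value, red above and blue below), with genes at their probe set of highest mean down the side and dogs across, Golden Retrievers first, then non-Golden Retrievers, then the F1 dog. The deepest blue is ITGA7 in ChadP9 and the deepest red is ITGBL1 in Tucker, and ChadG4 and Joey are blue in most genes.

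Since the subunits act as pairs, alpha and beta signals were set against each other over the dogs for 7 known pairs. ITGA4 was left out because it was not detected. ITGAV and ITGB1 had a Pearson r of 0.681 (permutation test, p = 0.0234, adjusted over the 7 pairs p = 0.164) and a Spearman's rho of 0.733 (permutation p = 0.0204, adjusted 0.0715) over 10 dogs. Both were high in ChadP9 and ChadG8 and low in ChadG4 and Tucker. Without ChadG4 and Tucker, the dogs farthest from the ITGB1 median, r was 0.442 (exact permutation p = 0.270) and rho 0.500, a range of ITGB1 that is narrower by construction. Over the 9 purebred dogs r was 0.716 and rho 0.833 (exact permutation p = 0.0167 and 0.00827, adjusted 0.117 and 0.0579).

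ITGA5 and ITGB1 had an r of 0.640 (permutation p = 0.0483, adjusted 0.169) and a rho of 0.745 (permutation p = 0.0174, adjusted 0.0715), and r was 0.527 without the same 2 dogs (exact permutation p = 0.185). Frog, ChadG8 and ChadP9 were high in both genes. ITGA1 and ITGB1 had an r of 0.438 over 10 dogs (permutation p = 0.205) and a rho of 0.370 (permutation p = 0.297). Without ChadG4 and Tucker r was 0.887 (exact permutation p = 0.00362, adjusted over 6 pairs 0.0217). The rho there was 0.786 (exact permutation p = 0.0279, adjusted 0.168), which did not pass. Dal4, with the lowest ITGA1 at 7.93 and an ITGB1 of 12.55, was kept in. ChadG4 had a high ITGA1 and a low ITGB1, and no value was computed without it alone. ITGA2 and ITGB1 had an r of 0.298 (permutation p = 0.393) and a rho of 0.273 (permutation p = 0.447), and r was 0.264 without the 2 dogs.

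Alpha v was also set against its other beta partners. ITGAV and ITGB5 had an r of 0.555 (permutation p = 0.102, adjusted 0.237) and a rho of 0.261 (permutation p = 0.468). Over the 9 purebred dogs r was 0.631 (exact permutation p = 0.0756, adjusted 0.176). Without ChadG4 and Dal4, the dogs farthest from the ITGB5 median, r was -0.227, over a range of ITGB5 that is narrower by construction. ITGAV and ITGB3 had an r of 0.029 (permutation p = 0.935) and a rho of 0.152 (permutation p = 0.683). Without Frog and Tucker r was -0.195, over a range of ITGB3 narrowed in the same way. Because of the gap in the ITGA7 signals, which was not tested, no value over all dogs is given for ITGA7 and ITGB1. Within the 7 dogs of higher ITGA7 r was 0.027 and rho 0.143, but these dogs were picked by the ITGA7 signal itself, which narrows its range, so the relation is not settled either way. None of the 6 pairs set over all 10 dogs passed after adjustment over the 7 pairs. With the mean of all probe sets of each gene, r lay between 0.11 and 0.50 for the 6 pairs over 10 dogs. For ITGA7 and ITGB1 it was 0.476 over 7 dogs. These means also took in probe sets of ITGAV, ITGB1, ITGB5 and ITGA2 that lay below the line on all arrays. ITGA1 has a single probe set, and its r with ITGB1 was 0.135 there, against 0.438 at the probe sets of highest mean. How the pairs relate at other detected probe sets is therefore not shown by these values.

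**Figure D5:**
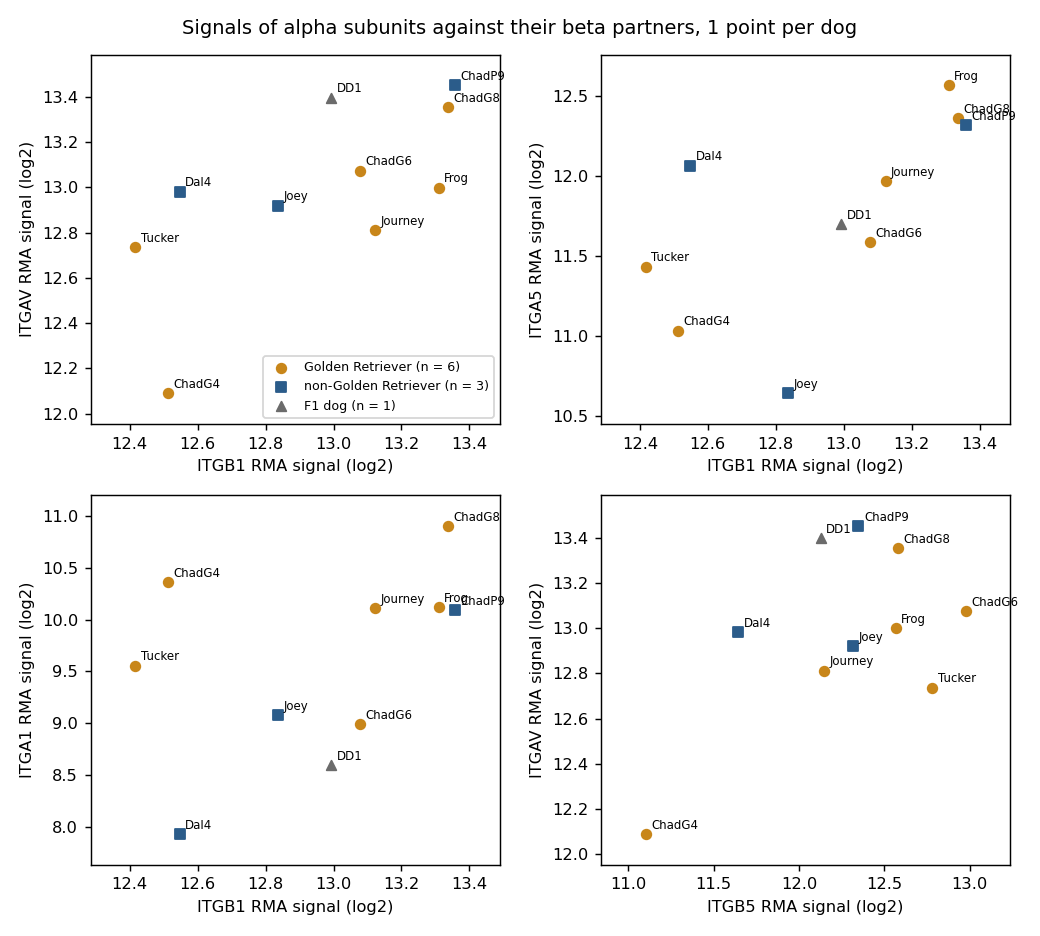
Log2 signals of alpha subunits (vertical axes) against their beta partners (horizontal axes), 1 labelled point per dog, for ITGAV, ITGA5 and ITGA1 against ITGB1 and ITGAV against ITGB5. Tucker, ChadG4 and Dal4 lie at the left of the panels with ITGB1, and ChadG4 alone lies at the lower left of the panel of ITGAV against ITGB5.

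By likeness over the 10 dogs, the genes nearest to ITGAV were PHF13 (Pearson r = 0.946), PIAS3 (0.943) and ADD1 (0.941), and those nearest to ITGA7 were FBXO9 (0.900), JMJD8 (0.880) and DBH (0.876). PHF13, PIAS3 and ADD1 were also lowest in ChadG4. FBXO9 and JMJD8 were, like ITGA7, lowest in ChadP9 and highest in Tucker. However, FBXO9 at 4.59 to 5.57 and DBH at 4.72 to 5.28 lay around the background line of 5.02 to 5.16. JMJD8 had 7.17 to 7.81. They are the highest of 19859 probe sets compared for ITGAV and of 19856 for ITGA7, and are given as a description.

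The rest of the integrin family was read from a list of 17 other subunits, of which 16 were found and 13 tested. By limma, 10 were higher and 3 lower in Golden Retrievers, against 47.1% higher among all tested probe sets. After adjustment 0 passed, and 1 (ITGB7, lower) had an unadjusted p under 0.05, against a background of 4.52%, with a median difference of 0.13 against -0.02 over all tested probe sets. The leukocyte subunits ITGAM and ITGAX were below the line on all arrays, and ITGA9 was above it on 1. ITGA6, a laminin receptor subunit like ITGA7, had 8.04 in ChadG4, 10.46 in ChadG6, 10.61 in ChadG8, 8.82 in Frog, 8.92 in Journey and 9.13 in Tucker, against 11.07 in ChadP9, 8.22 in Dal4 and 5.10 in Joey, with 10.17 in the F1 dog. ChadP9, lowest in ITGA7, was thus highest in ITGA6, while Joey was low in both, and the difference of 1.20 (SE 1.11, adjusted p = 0.862) was close to its error and was -0.32 without Joey. ITGA3, another laminin receptor subunit, ran from 4.86 in Frog to 8.96 in ChadG4, with a difference of -0.21 that was 0.25 without Dal4. ITGB7, known from lymphocytes homing to the gut, was highest in Dal4 at 8.29 and had a difference of -0.71 (SE 0.251, adjusted p = 0.772), or -0.37 without Dal4. ITGA10, a collagen receptor subunit of cartilage, had a difference of 0.66 and was above the line on 4 arrays.

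The matrix and cell surface ligands of integrins mostly had positive differences, but none passed. Of 29 ligand genes found, 22 were tested, 20 of them higher and 2 lower by limma, against 47.1% higher among all tested probe sets. After adjustment 0 passed, and 2, both higher, had an unadjusted p under 0.05, against a background of 1.81%. These 2 were LAMA4 and TNC. The difference of TNC was 1.83 (SE 0.653, adjusted p = 0.772), with its lowest signal of 7.58 in Dal4. The median difference was 0.32. LAMA4, a laminin chain of vessel basement membranes, had a difference of 3.48 (SE 1.39, adjusted p = 0.772), with Dal4 at 4.74 against 10.08 to 13.35 in the other dogs, and the difference was 1.21 without Dal4. SPP1, the RGD protein osteopontin, had a difference of 1.92 (SE 0.956, adjusted p = 0.776), with 3.18 in Dal4 and 8.56 in ChadG8 as its extremes. It was above the line on 7 arrays, and its difference too was 1.21 without Dal4. The lowest differences were those of TGFBI, at -0.33 (-1.76 without Dal4), and of the laminin chain LAMC1, at -0.01. THBS2, a matrix protein bound by several receptors, was 4.94 in ChadG4, against 9.08 to 13.78 elsewhere.

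Of the cytoplasmic adaptors and focal adhesion proteins, 39 were found and 37 tested, with 18 higher and 19 lower, 0 after adjustment and 3, all lower, at an unadjusted p under 0.05 by limma, against a background of 4.52%. The 3 were VCL, GIT1 (difference of -0.40) and BCAR1 (-0.34). VCL, which codes for vinculin, the link of talin to actin, had 6.30 to 8.05 in Golden Retrievers, against 8.22 in ChadP9, 8.78 in Dal4 and 7.79 in Joey. The difference of -1.02 (SE 0.396, adjusted p = 0.772) did not pass. LIMS1, which binds integrin-linked kinase, had a difference of -0.48, ZYX (zyxin) of 0.74 and APBB1IP, an activator of talin, of 0.65. Without Dal4 those of ZYX and APBB1IP were 0.21 and 0.34. TGFB1I1 was lowest in ChadG4 at 6.86, and DAB2, an endocytic adaptor of beta subunits, ran from 10.47 in Dal4 to 13.16 in Tucker.

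Of the membrane partners of integrins, 14 of the 15 found were tested, 11 higher and 3 lower, and of the carriers that take integrins into and out of endosomes 11 of 13 were tested, 6 higher and 5 lower. In both lists 0 passed at an adjusted p or an unadjusted p under 0.05 by limma. The tetraspanins CD9 and CD81 had differences of 1.08 and 0.95, which without Dal4 were 2.03 and 0.28. SDC2, a syndecan, was 8.92 in ChadG4 and 11.33 to 12.99 in the other dogs, with a difference of -0.17 (0.44 without ChadG4), and that of the VEGF receptor KDR was -0.14. Among the carriers, the small GTPases RAB5A and RAB4A had differences of -0.41 and -0.36, RAB11B and SNX17 of 0.25 and 0.15, and the widest ranges were those of NRP1, from 4.93 in ChadG4 to 8.08 in the F1 dog, and ARF6, from 7.65 in ChadP9 to 9.14 in ChadG6. Median differences were 0.19 for the membrane partners, 0.06 for the carriers and -0.02 for the adaptors.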

How the data were processed

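Labelled RNA of 10 dogs' tumor cell cultures was hybridized to Canine_2 arrays. The table deposited by the authors holds log2 signals made by RMA (affy, per the submitters' processing notes), which corrects background and quantile normalizes across arrays, so a shift shared by all genes is not visible in them. Of 43035 probe sets, 111 control probe sets were left out. Gene names came from the platform annotation, which gave 29254 probe sets 1 symbol, 439 several and 13231 none. Chromosomes came from UU_Cfam_GSD_1.0. The build behind the probe sets is not given in the sources used here, and neither labels nor values gave a batch or scan date.

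Golden Retriever minus non-Golden Retriever was fitted with limma 3.58.1 (R 4.3.3) on the 26787 probe sets above the array's 40th percentile on at least 3 purebred dogs' arrays, with the F1 dog left out and two-sided p-values adjusted by Benjamini-Hochberg over all tested. The methods name an analysis of variance per gene, run here as the methods' t-test. Permutation tests, coded with NumPy 2.4.6 and with ranks from SciPy 1.17.1, were exact, or drew 100000 resamples for pairs over 10 dogs. The fit was tested on simulated data. Nothing says that a dog's array was repeated, so p-values of the breed difference set it against the spread between single cultures. In limma that spread is moderated over all tested probe sets. The number of arrays limits the precision.

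Every probe set of the 10 integrin genes was named. Of each other list, at the probe set of highest mean, the 2 highest and 2 lowest differences, the 2 widest ranges and any call were named, and for ITGAV and ITGA7 the 3 genes of highest r. TNC, GIT1 and BCAR1 were named besides for an unadjusted p under 0.05. The genes and lists were chosen with earlier results of these data known. Alternatives were other filters, centring, limma with trend or array weights, the methods' t-test, the F1 dog in either group, males only (sex from the study's record) and each dog left out. For the other lists' named genes, except TNC, GIT1 and BCAR1, leaving out dogs was added after seeing the data.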

Additional observations from a re-analysis of the deposited data

Results flagged for a closer look

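Among the 19 tested integrin probe sets, the 6 Golden Retrievers were searched for a dog far from the nearest other (Dixon's test at 95%), and 3 probe sets held one. Chance alone gives such a dog in about 1 in 20 groups. ITGA7 was lower in ChadG4 than in the other 5 Golden Retrievers at its first probe set, at 8.56 against 10.86 to 11.56, and at its second probe set, at 6.76 against 9.19 to 9.88. Both probe sets read the same gene and count as 1 observation. ITGBL1 was higher in Tucker, at 7.42 against 5.21 to 5.57 in the other Golden Retrievers.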

How the results depend on the processing

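Over 19 other settings, 334 of 359 repeated differences of single integrin probe sets kept their sign and 25 changed it, and 13 of the 19 probe sets never changed sign. Over all tested probe sets, 1 was called, against 2 by the methods' t-test, 0 with the F1 dog as a non-Golden Retriever, 1 to 2 with single dogs left out (2 without Joey), and 2 with ChadG4 and Dal4 both left out. Of the integrin probe sets 0 were called in each setting other than the last, which called 1, ITGA7 at 3.06 (limma, adjusted p = 0.0167). Adjusted p-values of that probe set were otherwise 0.513 to 0.999. Signs changed where differences were near 0. With males only, ITGB1 was -0.16, ITGB5 at its last tested probe set -0.15 and ITGA5 at its first probe set -0.066. With array weights, ITGA2 was 0.10 and 0.065 and ITGA5 at its second probe set 0.35. With the F1 dog as a Golden Retriever, ITGA2 was 0.058 and 0.065, and with it as a non-Golden Retriever the second ITGA5 probe set was 0.064. Without ChadG4 and Dal4, ITGB1 was -0.045 and the second ITGA5 probe set 0.36. With single dogs left out, ITGB1 ranged over -0.14 to 0.27, ITGB5 (last tested probe set) over -0.067 to 0.42, ITGA2 over -0.36 to 0.24 and -0.41 to 0.19, and ITGA5 over -0.37 to 0.47 and -0.58 to 0.35. The cause of these changes was not tested. Without the 2 dogs farthest from the beta subunit's median, r was -0.195 for ITGAV with ITGB3, -0.227 for ITGAV with ITGB5 and 0.887 for ITGA1 with ITGB1. For the last, the permutation p adjusted over 6 pairs was 0.0217 for r but 0.168 for rho. No paired analysis was possible because the labels give no replicate numbers that the breed groups share. With 6 dogs against 3 and SEs of 0.142 to 0.717, differences under about 1 log2 unit are within the error of most of these probe sets, and a difference that did not pass is not shown to be absent.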
